A study of Arabidopsis thaliana with 21 samples.

Results

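Stress kinase signalling in Arabidopsis thaliana was followed through 9 genes at 1.5 h of arsenate exposure: the MAP kinase kinase kinase MEKK1 (AT4G08500), the MAP kinase kinases MKK4 (AT1G51660), MKK5 (AT3G21220) and MKK9 (AT1G73500), the MAP kinases MPK3 (AT3G45640), MPK6 (AT2G43790), MPK4 (AT4G01370) and MPK11 (AT1G01560), and the AGC-family kinase OXI1 (AT3G25250). They were taken by locus as a chosen list, without use of their measured values in the selection rule. Earlier results of these data were known when the list was made, so counts over it are a description. These 9 of the 32627 loci on a NimbleGen expression array are read by 10 of its 37118 features, 1 feature for each gene and 2 for MPK11. No feature was removed for low signal, so all 10 were tested.

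A MAP kinase cascade passes a signal through a chain of protein kinases, in which a MAP kinase kinase kinase phosphorylates a MAP kinase kinase, and this in turn phosphorylates a MAP kinase. In Arabidopsis, MKK4 and MKK5 act on MPK3 and MPK6, and the MEKK1 branch leads to MPK4, in responses to microbial patterns, wounding, cold and reactive oxygen. OXI1 is a kinase whose transcript is known to rise with hydrogen peroxide and which is needed for full activation of MPK3 and MPK6 under oxidative stress. The kinases are switched on by phosphorylation, which an expression array does not read: the values below are transcript levels.

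All plants were of the Col-0 accession and spent 7 days on medium with 1 mM phosphate and 2 days on medium without phosphate before transfer to liquid medium. The 3 groups at 1.5 h were wild type without supplement (control), wild type with 30 µM arsenate, and plants given the genotype label OXW6, described as overexpressors of the transcription factor WRKY6, with 30 µM arsenate. Each group had 3 independent biological samples, 1 per array, and no OXW6 group without arsenate was measured. The promoter that drives WRKY6, the number of independent lines and the organ sampled are not given in the sources used here. In bulk RNA, fewer cells of a type and less RNA per cell cannot be told apart.

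Values are log2 expression after RMA, the authors' background correction, quantile normalization and summary over the probes of a feature. Array maxima lay between 15.95 and 15.97, so values near the top of the scale have little room above them. Whether the same true change gives a smaller difference there than in the middle was not tested. Replicate arrays correlated with Pearson's r from 0.980 to 0.996 across features. WRKY6 (AT1G62300) itself read 15.61, 15.50 and 15.55 on the control arrays, 15.82, 15.85 and 15.85 on the wild-type arsenate arrays and 15.82, 15.80 and 15.87 on the OXW6 arrays. Its level thus did not set the OXW6 arrays apart from wild type with arsenate (difference -0.01 ± 0.063 SE, limma adjusted p = 0.99), at a position above 92.7% of the features of every array, and the label is used below as given.

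In wild type, arsenate was accompanied by higher transcript levels of OXI1, MKK9, MPK11 and MKK4, while MPK3, MPK6, MPK4, MKK5 and MEKK1 did not pass the test. OXI1 had the largest difference of the 9 genes (2.33 log2 units), MKK9 and the second MPK11 feature differed by a little under 1 log2 unit, and no member was called lower. Called means an adjusted p under 0.05 in limma, with Benjamini-Hochberg adjustment over all features. By this rule 5 of the 10 member features (4 of 9 genes) were higher and 0 were lower, where 18.9% of all features were called higher and 20.2% lower. Leaving out 1 of the 6 arrays gave 2 to 3 member features called higher, beside 9.62% to 16.7% of all features. The median difference was 0.35 over the members and -0.02 over all features. With each array centred on its median, 8 of the 10 were called higher, beside 24.4% of all features, and the share of higher among all calls moved from 48.3% to 59.7%.

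**Figure D1:**
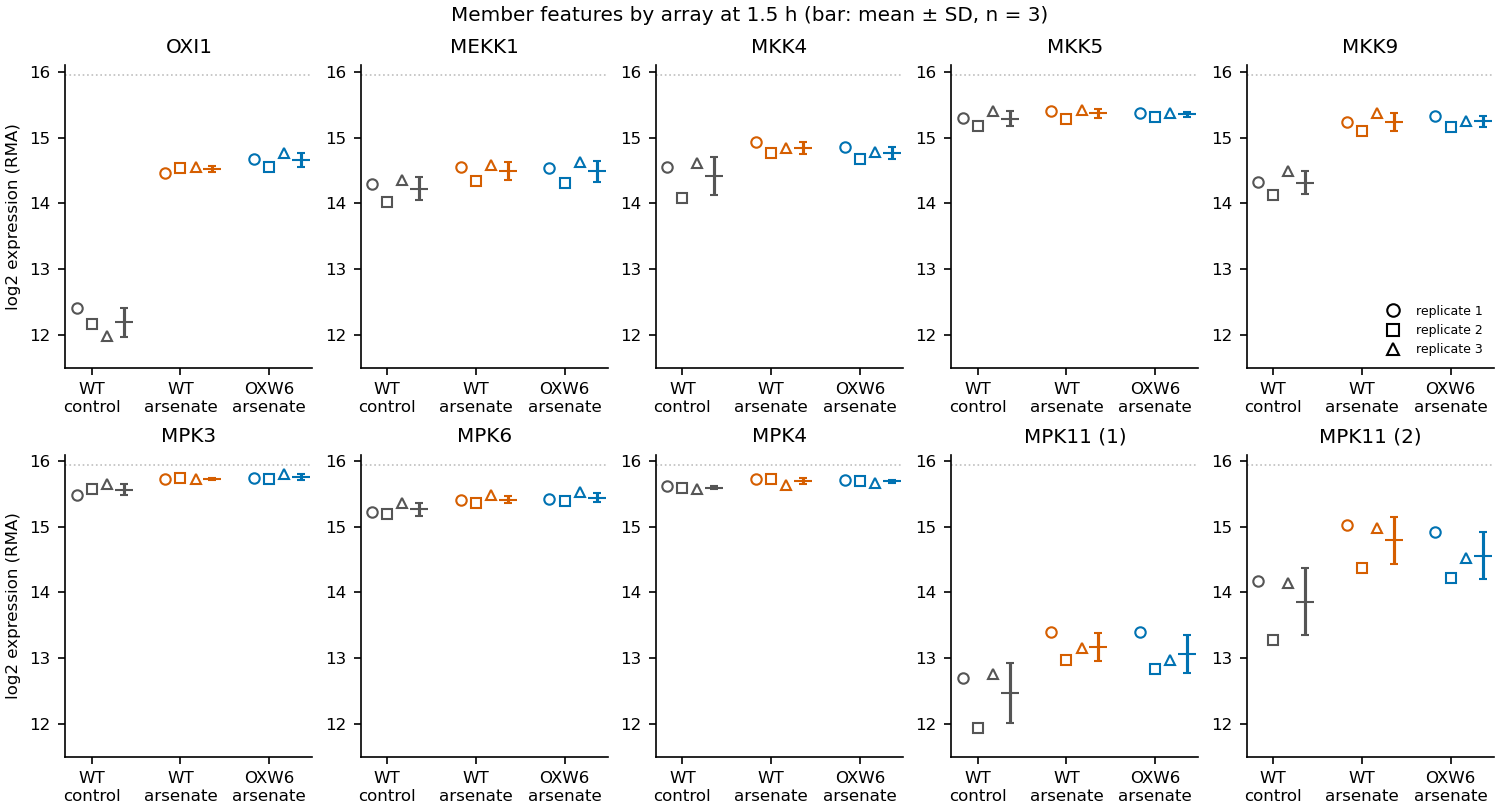
Log2 expression (RMA, vertical axis) of each member feature on the 9 arrays at 1.5 h, by group, with symbols for replicate numbers and bars for mean ± SD (n = 3); numbers in brackets tell the 2 MPK11 features apart, and the dotted line is the lowest array maximum, 15.95. OXI1 lies between 11.98 and 12.41 on control arrays and between 14.47 and 14.76 on all arsenate arrays, while MPK3 and MPK4 stay close under the dotted line in every group.

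OXI1 links reactive oxygen to the MAP kinases and had the clearest difference. It read 12.41, 12.17 and 11.98 on the control arrays, 14.47, 14.54 and 14.55 on the wild-type arsenate arrays and 14.68, 14.55 and 14.76 on the OXW6 arrays. Every arsenate array lay above every control array, with more than 2 log2 units between the nearest of them. In wild type OXI1 rose from 12.19 ± 0.22 to 14.52 ± 0.044 (mean ± SD, n = 3), a difference of 2.33 ± 0.11 (SE, limma adjusted p = 5.6e-06), which is 5.03-fold on the array's scale. The 3 pairs of same-numbered arrays gave 2.05, 2.37 and 2.57. Leaving out any 1 of the 6 arrays gave 2.23 to 2.44, with an adjusted p of 8.0e-05 or less.

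MEKK1, at the head of the branch that leads to MPK4, read 14.29, 14.03 and 14.35 in controls and 14.56, 14.33 and 14.59 in wild type with arsenate. The lowest arsenate value lay just below the highest control value, so the groups overlapped. The difference was 0.27 ± 0.12 (SE, limma adjusted p = 0.12). Same-numbered arrays differed by 0.27, 0.31 and 0.23. Blocking on the replicate number gave a call (limma adjusted p = 0.0079), as did centring on array medians (0.049). Over the 14 alternatives, of which these 2 gave a call, the adjusted p ran from 0.0079 to 0.32.

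Among the MAP kinase kinases, MKK9, which acts on MPK3 and MPK6 and is known from ethylene and camalexin synthesis, read 14.32, 14.13 and 14.49 in controls against 15.24, 15.10 and 15.37 in wild type with arsenate. The groups were separate, and the difference of 0.92 ± 0.11 (SE, limma adjusted p = 0.00058) was called in each of the 14 alternative fits. MKK4 read 14.56, 14.08 and 14.61 in controls and 14.93, 14.76 and 14.84 with arsenate. Its difference of 0.43 ± 0.14 was called (limma adjusted p = 0.041), but control replicate 2 was the low array, and without it the difference was 0.26 (adjusted p = 0.064). It also missed the threshold when arsenate replicate 1 (0.12), 2 (0.065) or 3 (0.092) or control replicate 1 (0.054) was dropped, and when the fit held the compared groups alone (0.062). MKK5, the close relative of MKK4 with which it shares its targets, read 15.29, 15.17 and 15.40 in controls and 15.40, 15.29 and 15.42 with arsenate. The groups overlapped and the difference was 0.08 ± 0.079 (adjusted p = 0.45, 95% interval -0.10 to 0.26). MKK5 lay above 87.4% of features on every array.

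The MAP kinases MPK3, MPK6 and MPK4 sat near the top of the scale. MPK3, whose transcript is itself known to respond to stress, read 15.48, 15.57 and 15.65 in controls and 15.72, 15.74 and 15.73 in wild type with arsenate, above 92.5% of features on every array. The arsenate arrays all lay above the controls, by less than 0.1 log2 unit at the nearest. The difference was 0.16 ± 0.068 (limma adjusted p = 0.090, 95% interval 0.01 to 0.32), and over 14 alternatives the adjusted p ran from 0.019 to 0.26, with calls after centring on array medians (0.025) and with a trended, robust variance (0.019). MPK6, which shares upstream kinases and many substrates with MPK3, read 15.23, 15.19 and 15.37 in controls and 15.40, 15.36 and 15.48 with arsenate. Its groups overlapped narrowly and its difference was 0.15 ± 0.077 (adjusted p = 0.16), called after median centring (0.042) and in no other of 14 alternatives (up to 0.35). Median centring shifts the difference of every feature by the same amount, here from 0.16 to 0.24 for MPK3 and from 0.15 to 0.23 for MPK6. Of all features 24.4% were then called higher. MPK4 read 15.62, 15.60 and 15.58 in controls and 15.72, 15.72 and 15.64 with arsenate, a difference of 0.10 ± 0.061 (adjusted p = 0.24, 95% interval -0.04 to 0.24). Its groups did not overlap, but they lay within 0.15 log2 units of each other in all.

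MPK11 is the nearest relative of MPK4 and its transcript is known to rise after bacterial flagellin. Its first feature read 12.70, 11.94 and 12.77 in controls and 13.40, 12.98 and 13.15 in wild type with arsenate. The second read 14.17, 13.27 and 14.14 in controls and 15.02, 14.37 and 14.98 with arsenate. On both features every arsenate array lay above every control array, and replicate 2 was the low array of each group. The differences were 0.71 ± 0.24 (limma adjusted p = 0.048) and 0.93 ± 0.29 (0.037), and blocking on the replicate number gave 0.0072 and 0.0011. The first feature missed the threshold whenever 1 of the 6 arrays was dropped (0.053 to 0.14), and its difference was 0.44 without control replicate 2. The second missed it when arsenate replicate 1 (0.11), arsenate replicate 3 (0.10), control replicate 2 (0.089) or control replicate 3 (0.056) was dropped.

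**Figure D2:**
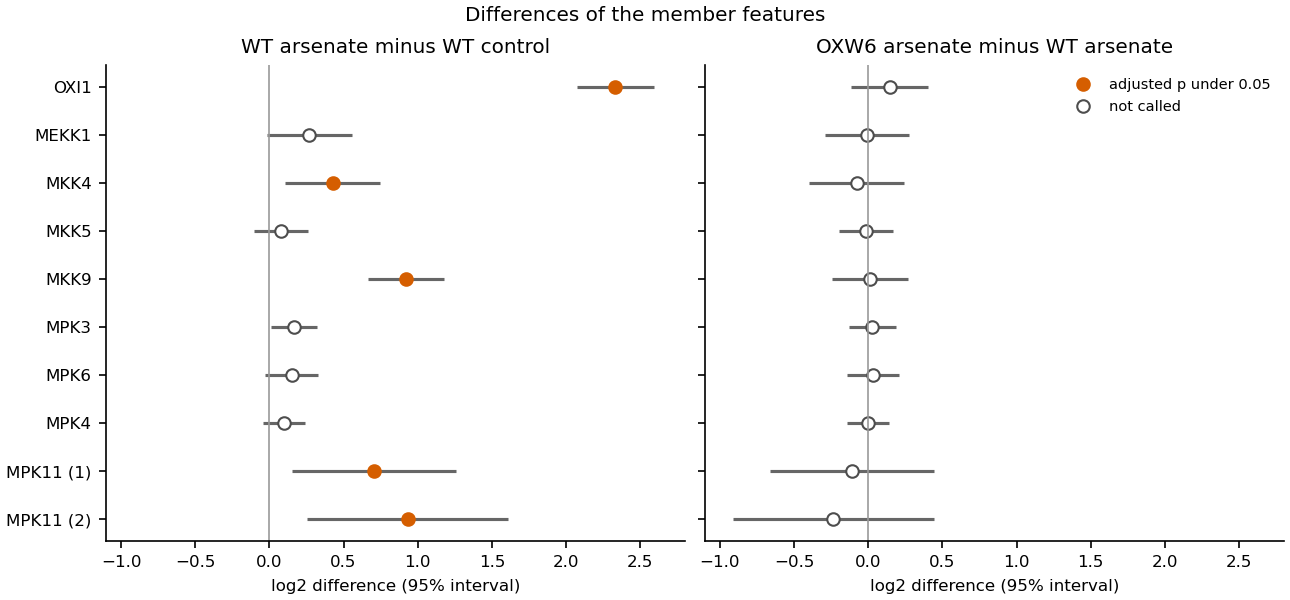
Log2 differences of the member features with 95% intervals from limma (horizontal axis), for wild-type arsenate minus control (left) and OXW6 arsenate minus wild-type arsenate (right); filled points have an adjusted p under 0.05. On the left all 10 points lie above 0 and 5 are filled, led by OXI1 at 2.33, and on the right the points lie between -0.24 and 0.15 and none is filled.

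The direction was shared more widely than the calls. All 10 member differences were above 0, from 0.08 for MKK5 to 2.33 for OXI1. On 7 of the 10 features every arsenate array lay above every control array, against 27.6% of all features. All 10 were higher with arsenate in each of the 3 pairs of same-numbered arrays, against 34.8% of all features. The 10 features come from the same arrays and are not independent of each other.

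Arrays with the same replicate number moved together in the members. The array numbered 2 was the lowest of its group for 7 of 10 member features in the control group, 7 in wild type with arsenate and 9 in the OXW6 group, against 35.2%, 38.6% and 38.8% of all features. MPK11 carried the widest of these shifts, 0.53 and 0.59 log2 units below the control mean on control replicate 2. With the 3 arrays numbered 2 left out, a choice made after these values were seen, OXI1 (2.31), MKK9 (0.90) and the second MPK11 feature (0.85, adjusted p = 0.0092) were called, and MKK4 (0.30, adjusted p = 0.053) and the first MPK11 feature (0.54, adjusted p = 0.056) were not. In that fit 19.0% of all features were called higher.

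**Figure D3:**
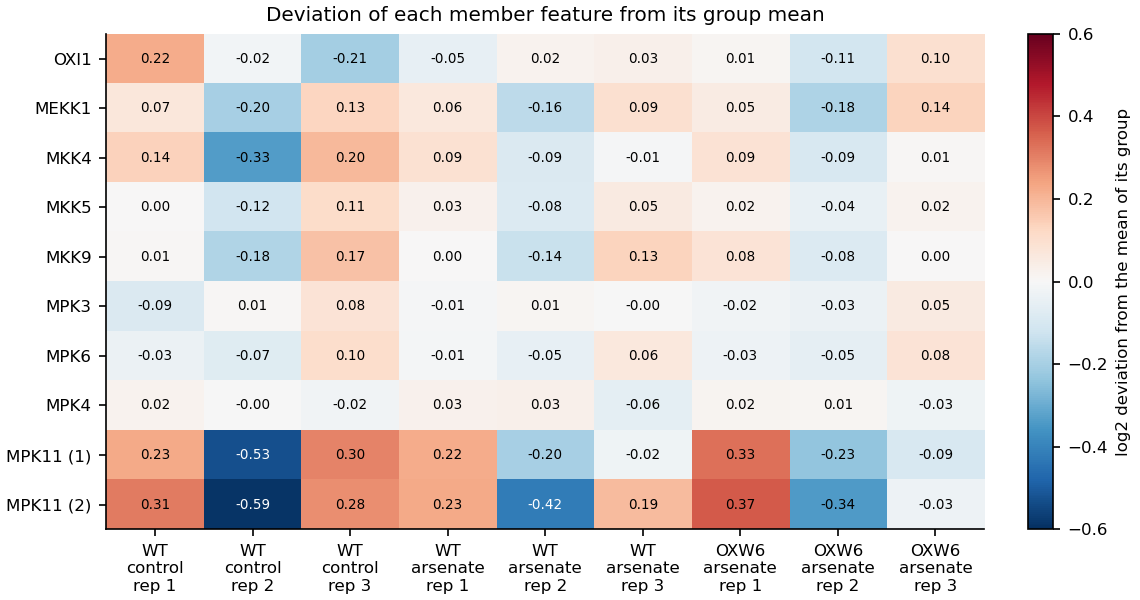
Deviation of each member feature (rows) from the mean of its own group on each array (columns), in log2 units, red above and blue below the group mean. The columns for replicate 2 are mostly blue in all 3 groups, most deeply for MPK11 on control replicate 2 at -0.53 and -0.59, and the rows for MPK3 and MPK4 are pale.

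The second comparison set OXW6 plants against wild type, both with arsenate, and no member passed the test. By limma, 0 of 10 member features were called, also 0 at an unadjusted p under 0.05. Across all features 4 (0.0108%) were called and 2833 had an unadjusted p under 0.05. That count over all features was 5690 with array weights and 0 to 105 on leaving out 1 array, highest without OXW6 replicate 2, while 0 member features were called in each of these fits. OXI1 was the only member whose OXW6 arrays all lay above the wild-type arsenate arrays, a pattern 6.39% of all features showed. Its difference was 0.15 ± 0.11 (SE, limma adjusted p = 0.76, 95% interval -0.11 to 0.40). MKK9 read 15.33, 15.17 and 15.25 in OXW6, a difference of 0.01 with an interval from -0.24 to 0.27, so a shift of the size arsenate was accompanied by in wild type lay outside it. For MPK11 the intervals were wide, -0.66 to 0.44 and -0.91 to 0.44, and those of the other 6 genes lay within -0.40 and 0.28. For no member does a missed threshold show that the genotypes were alike.

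Set against untreated wild type, where genotype and arsenate differ together, the OXW6 plants had OXI1 higher by 2.48 ± 0.11 (limma adjusted p = 4.3e-06) and MKK9 by 0.93 ± 0.11 (0.00070). These were the 2 of 10 member features called higher, and 0 were called lower, where 8.12% of all features were called higher and 12.5% lower. MPK11 differed by 0.60 ± 0.24 and 0.70 ± 0.29 and MKK4 by 0.35 ± 0.14, without passing (adjusted p 0.12 to 0.14). With the replicate number as a block, where 11.7% of all features were called higher, 7 member features were: OXI1, MKK9, both of MPK11 (0.020 and 0.0047), MKK4 (0.039), MPK6 (0.046) and MEKK1 (0.013). On 8 of 10 features every OXW6 array lay above every control array, against 14.4% of all features, and 9 of 10 were higher in each of the 3 pairs, against 29.3%. The exception to the pairs was MKK5 in pair 3 (-0.03). This comparison shares its control arrays with the first and its OXW6 arrays with the second, so it is no separate evidence.

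Other signals moved with arsenate on these arrays. In wild type, features of pseudogene loci lay a median of 0.56 to 0.65 above the control mean on the 3 arsenate arrays and tRNA features 0.90 to 1.21 above it. Of 10 root marker genes 8 were called lower (9 with the replicate block) and 0 higher (median -1.18). Of all features 20.2% were called lower and 18.9% higher, or 26.6% and 23.7% with the block. The root marker WOX5, at a low level of 9.09 in controls, went the other way (0.39 ± 0.18, limma adjusted p = 0.12). In OXW6 against untreated wild type WOX5 was called higher (0.71, limma adjusted p = 0.027), and 6 of the 10 were called lower (9 with the block). In that comparison 8.12% of all features were called higher and 12.5% lower, or 11.7% and 19.0% with the block. On the OXW6 arrays the pseudogene median was -0.02, 0.69 and 0.27 and the tRNA median 0.02, 1.19 and 0.21. OXI1 was 2.49 above the control mean on OXW6 replicate 1, where both classes were at control level, and 2.36 above it on replicate 2, where both were high. MKK9 was 1.02 and 0.85 above it on the same arrays. The MPK11 features were 0.93 and 1.07 above it on OXW6 replicate 1, and each was 0.36 above it on replicate 2. The summed level of the root markers, in log2, was 16.64 to 16.94 on control arrays, 15.40 to 15.95 on wild-type arsenate arrays and 15.87 to 16.11 on OXW6 arrays, with 4 of the 10 above the median of the table in each group. The brightest root markers, EXPA7 (15.13 in controls) and SHV2 (14.67), weigh most in this sum. Of 8 green tissue markers 2 were called lower in wild type with arsenate (3 with the block) and 0 higher, beside the wild-type shares of all features given above. Their summed level was 18.30 to 18.40 in controls, 18.26 to 18.31 in wild type with arsenate and 18.21 to 18.30 in OXW6. Features near the array maximum, such as RBCS1A (15.90 in controls) and RCA (15.91), weigh most in this sum. The 2 called, LHCB2.2 (-1.11) and CAB2 (-0.57), had lower levels. LHCB2.1 (-0.35) was called with the block and not without it, and none of the others was called. Of 7 reference genes 0 were called. The parts of the pseudogene, tRNA and root marker shifts in the member differences were not tested.

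**Figure D4:**
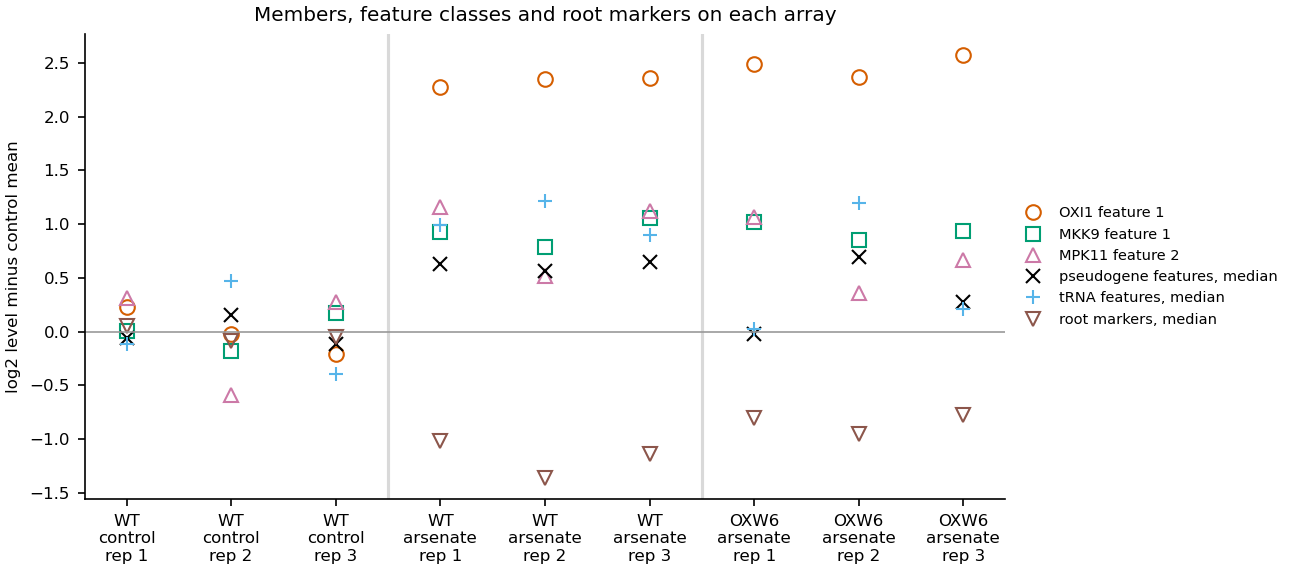
Log2 level minus the control mean (vertical axis) on each of the 9 arrays for OXI1, MKK9 and the second MPK11 feature, with the medians of pseudogene, tRNA and root marker features. OXI1 sits between 2.28 and 2.57 on all 6 arsenate arrays, while the pseudogene median spans -0.02 to 0.69 over the 3 OXW6 arrays and the root marker median is at -0.78 or lower on all 6.

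The rest of the pathway was read from lists by locus, with the brightest feature of each gene. These lists too were made with earlier results of these data known. The counts stand beside 18.9% of all features called higher and 20.2% lower, or 23.7% and 26.6% when the replicate number was a block. Of the 16 other MAP kinases 0 were called higher with arsenate and 4 lower (median -0.11), the latter a share near that of all features, with 2 and 6 under the block. MPK12 (AT2G46070), a kinase known from guard cells, fell from 13.95 ± 0.11 to 13.40 ± 0.21 (mean ± SD, n = 3; difference -0.55 ± 0.13, adjusted p = 0.011), and its groups did not overlap. MPK15 (AT1G73670) fell by 0.35 ± 0.091, MPK16 (AT5G19010) by 0.37 ± 0.10 and MPK9 (AT3G18040) by 0.27 ± 0.074. Of the 7 other MAP kinase kinases 1 was higher and 1 lower (2 and 1 with the block). MKK3 (AT5G40440), which acts on another group of MAP kinases in wounding and abscisic acid responses, fell from 12.74 to 12.07 (-0.67 ± 0.11, adjusted p = 0.0023). MKK10 (AT1G32320) rose from a low level of 9.31 to 10.07 (0.76 ± 0.14, adjusted p = 0.0045). On the OXW6 arrays MKK10 read 9.33, 9.88 and 9.43, highest on replicate 2, where pseudogene and tRNA features were also highest of the 3; their part in this was not tested. MKK2 (AT4G29810), which links MEKK1 to MPK4, was at 0.17 (0.12) and MKK7 (AT1G18350) at 0.69 (0.078), without passing; under the block MKK7 was called (0.0056) and MKK2 was not (0.069).

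Of the other MAP kinase kinase kinases, 6 of 17 were higher and 1 lower (median 0.15; 8 and 3 with the block), beside 18.9% and 20.2% of all features. MAPKKK21 (AT4G36950) read 12.26, 11.85 and 12.53 in controls, 15.31, 14.94 and 15.17 in wild type with arsenate and 15.04, 14.53 and 14.75 in OXW6. All 6 arsenate arrays lay more than 1.5 log2 units above all controls. It rose by 2.93 ± 0.20 (adjusted p = 2.8e-05), beside 2.33 for OXI1, a contrast between genes that was not tested. MAPKKK14 (AT2G30040), known from wounding, rose by 1.50 ± 0.26 (0.0033). MAPKKK18 (AT1G05100), an abscisic acid-responsive kinase that acts on MKK3, rose by 0.91 ± 0.076 (9.2e-05). MAPKKK13 (AT1G07150) rose by 0.87 ± 0.15 (0.0038). MEKK1 lies close to its relatives MEKK2 (AT4G08480, listed as MAPKKK9) and MEKK3 (AT4G08470) in the genome; these were at 0.11 ± 0.12 (0.53) and 0.15 ± 0.11 (0.28), and how far their probes tell such similar genes apart was not tested.

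**Figure D5:**
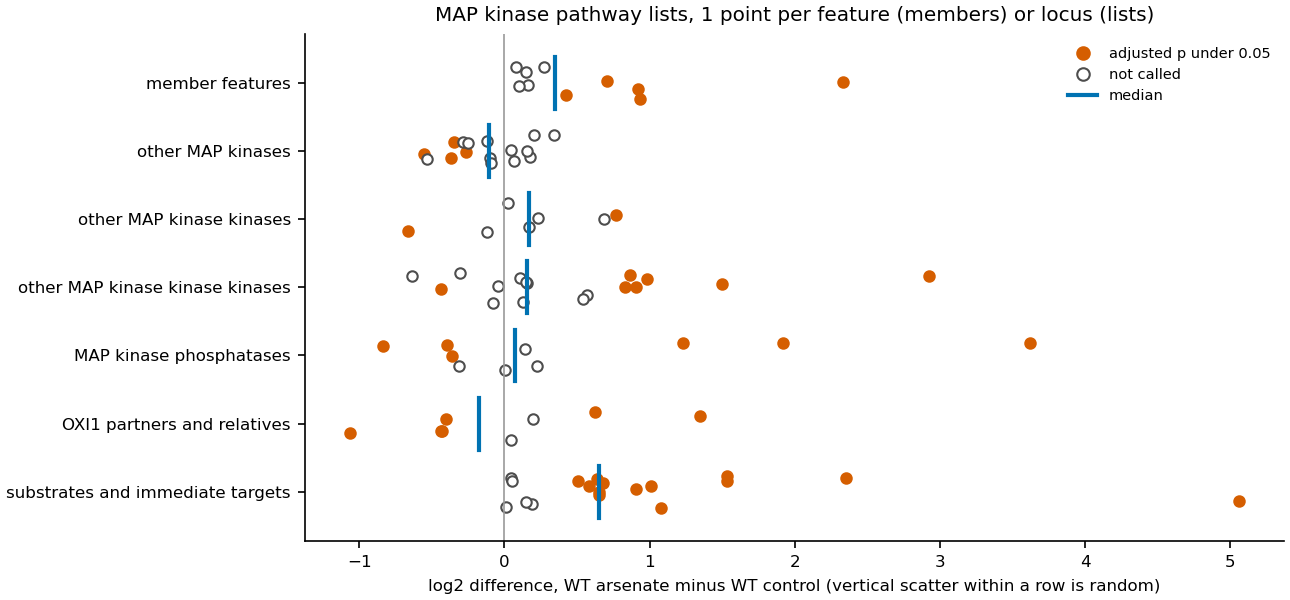
Log2 difference between wild-type arsenate and control (horizontal axis) for the member features and the genes of 6 pathway lists, 1 point each, filled where the adjusted p was under 0.05, with a bar at each median. The substrates and targets lie mostly to the right of 0 with a median of 0.65, the other MAP kinases centre on -0.11, and the phosphatases split to both sides.

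Among the enzymes that switch MAP kinases off, 3 of 10 were called higher and 3 lower (median 0.07; 3 and 4 with the block), beside 18.9% and 20.2% of all features. AP2C1 (AT2G30020), a protein phosphatase that acts on MPK4 and MPK6, read 13.42, 13.28 and 13.24 in controls and 15.28, 15.11 and 15.31 with arsenate, and rose by 1.92 ± 0.082 (limma adjusted p = 3.2e-06). The locus AT1G07160, which like AT2G30020 has no symbol in the gene table, read 10.91, 10.70 and 11.08 in controls and 14.31, 14.64 and 14.60 with arsenate, a rise of 3.62 ± 0.12 (1.0e-06). Both stood well clear of the controls on every arsenate array, OXW6 included. PP2C5 (AT2G40180) rose by 1.23 ± 0.25 (0.0071), while the dual-specificity phosphatase DsPTP1 (AT3G23610) fell by 0.83 ± 0.19 (0.013). DsPTP1 read 11.76, 10.89 and 11.25 on the OXW6 arrays, lowest on replicate 2, against 11.61 to 11.85 in controls.

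Of 8 genes tied to OXI1, 2 were called higher and 4 lower, also with the block (median -0.18), beside 18.9% and 20.2% of all features. PTI1-4 (AT2G47060), a kinase that OXI1 phosphorylates, rose by 0.63 ± 0.070 (limma adjusted p = 0.00041), and AT3G59350 of the same list rose by 1.34 ± 0.21 (0.0021). UCN (AT1G51170) and UCNL (AT3G20830), AGC kinases related to OXI1, of which UCN is known from ovule development, fell (-1.07 ± 0.10 and -0.40 ± 0.081). Of 18 substrates and immediate targets 13 were called higher and 0 lower (median 0.65), beside 18.9% and 20.2% of all features. As the list was made with earlier results of these data known, this count is a description and not a test. They included ACS6 (AT4G11280), an enzyme of ethylene synthesis stabilised by MPK3 and MPK6, which rose by 1.08 ± 0.093 (0.00011), and the zinc finger gene STZ (AT1G27730, also ZAT10), which rose by 1.53 ± 0.15 (0.00021). Both ended near the top of the scale, at 15.61 and 15.68. The heat stress factor HSFA2 (AT2G26150) rose by 5.06 ± 0.15 (6.4e-07), from 10.74 to 15.80. The first is a dim level under the 40th percentile of the table (11.28) and the second is close to the top. How far either end limits the size of this change was not tested. Between OXW6 and wild type with arsenate, 0 of the genes on these 6 lists were called. The smallest adjusted p there belonged to MKK10 (-0.53, 0.49) and MAPKKK18 (0.21, 0.61).

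The features whose levels followed OXI1 most closely over the 9 arrays were those of ERF6 (AT4G17490, Pearson's r = 0.998), an ethylene response factor that MPK3 and MPK6 phosphorylate, AT4G29780 (0.997) and the hydrolase gene NUDT4 (AT1G18300, 0.997). These r values describe mainly the step between control and arsenate arrays that all of them share, with wild-type differences of 2.35, 1.45 and 2.84. For the second MPK11 feature the nearest were the kinase gene APK2A (AT1G14370, 0.986) and both features of AT1G10340 (0.984 each), with differences of 0.62, 0.77 and 0.78. No other member feature varied enough over the arrays (SD of at least 0.5) to be compared in this way.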

How the data were processed

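The members and lists were chosen with earlier results of these data known. The NimbleGen table holds log2 values that the authors deposited after RMA, per the submitters' processing notes, from Cy3-labelled cDNA of 1 sample per array; the RMA version and the genome build are not given in the sources used here, so no coordinates or sequences are printed. With 3 arrays in a group, their number limits the precision. Groups and replicate numbers come from the labels. The 12 ATH1 arrays at 8 h were not used here, because their probe sets were not paired with genes.

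From the deposited values, limma (version 3.58.1, R 4.3.3) was fitted over all 9 arrays and 37118 features, with group as the only term, empirical Bayes moderation and two-sided tests. Adjustment was by Benjamini-Hochberg over all features of a contrast, with calls at an adjusted p under 0.05, and no feature was filtered out. The fit was tested on simulated data. Symbols come from the RefSeq gene table, which held 31993 of the 32627 loci and lists OXI1 as AGC2-1. Gene names used for members are among its synonyms. The names AP2C1 and MEKK2 are not its symbols, as it gives none for AT2G30020 and MAPKKK9 for AT4G08480.

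Deviations from group means of same-numbered arrays correlated at 0.29 to 0.63, above 0.1 in each of 9 pairs. On this ground the replicate numbers, taken from the sample titles, served to pair the arrays in an alternative fit. The titles do not say what same-numbered arrays share. The reported adjusted p values do not use this pairing; the fit with the replicate block is given beside a result where it changes the call. The other alternatives were the compared groups only, a further quantile normalization, median centring, leaving out features below the 40th percentile in all groups, trended and robust moderation, array weights and leaving out each array in turn. Named were all members, WRKY6, from each list up to 4 genes lowest in adjusted p in the arsenate contrast and up to 2 in the genotype contrast, and the 3 features most like each member with an SD of at least 0.5; MEKK2 and MEKK3 were added afterwards for their kinship with MEKK1. Planned motif and protein comparisons were not run, since no sequence table was used here.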

Additional observations from a re-analysis of the deposited data

How the results depend on the processing

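The count of 5 member features called higher with arsenate in wild type stood beside 18.9% of all features called higher. It was 3 on the compared groups only (21.0% of all features), 8 after centring on array medians (24.4%), and 3 without the arrays numbered 2 (19.0%). On leaving out 1 array it was 2 to 3 (9.62% to 16.7%), and with the replicate block 6 (23.7%). In either direction 8959 to 12759 of all features were called on leaving out 1 array, against 14517. In the genotype comparison the count over all features, 4, was 12 with the replicate block, 0 on the compared groups only, 5690 with array weights, 0 to 105 on leaving out 1 array and 2 without the arrays numbered 2, while the count of member features was 0 under each setting. Against untreated wild type the OXW6 count of 2 member features called higher stood beside 8.12% of all features. It was 7 with the replicate block (11.7% of all features) and 5 with array weights (16.7%). In either direction 13320 features were called with array weights, against 7638. The causes were not tested.

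Small genotype differences changed sign without a call. After median centring MPK3, MPK6 and MKK9 were at -0.010, -0.0068 and -0.026, with array weights MKK9 and MEKK1 at -0.0025 and 0.073, and without the arrays numbered 2 MPK4, MKK9 and MEKK1 at 0.0062, -0.014 and 0.0043. Leaving out 1 array gave -0.032 to 0.011 for MPK4, -0.0095 to 0.063 for MPK6, -0.28 to 0.0069 for the first MPK11 feature, -0.059 to 0.0078 for MKK5, -0.056 to 0.079 for MKK9 and -0.087 to 0.084 for MEKK1. Of 444 values of single members and lists under alternatives, 386 kept their direction and their side of the threshold or their count; OXI1 and MKK9 did so under all alternatives in both comparisons with untreated wild type. The planned motif alternative was not run. MPK3, MPK4, MPK6 and MKK5 lay near the top of the scale, and how far this limits what can be seen for them was not tested.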
